A study of Rattus norvegicus with 11 samples.

Results

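Neurotrophins and their receptors were described in the bladder of rats with partial bladder outlet obstruction (PBOO) and of normal rats. The set holds 6 genes, chosen by symbol from the 18507 genes of 1 expression table and not by their values. Bdnf and Ntf3 encode secreted neurotrophins, Ntrk2 and Ntrk3 encode Trk receptors, Ngfr encodes the p75 receptor and Sort1 encodes sortilin. All 6 genes had a row in the table, and all 11 samples were used.

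Neurotrophins are secreted proteins that keep neurons alive, guide their branching and tune their synapses. They are made as proneurotrophins, which are cleaved inside or outside the cell. Mature BDNF binds TrkB (from Ntrk2) and mature NT-3 binds mainly TrkC (from Ntrk3). The Trk receptors are tyrosine kinases that signal through the MAP kinase, PI3 kinase and phospholipase C pathways. The p75 receptor binds all neurotrophins at lower affinity and, together with sortilin, binds the proneurotrophins. In the bladder, neurotrophins are made by smooth muscle and urothelial cells and act on the sensory and autonomic fibres of the wall, and p75 is common on Schwann cells.

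The RNA came from bladder tissues of Sprague-Dawley rats, and per the methods the rats were females of about 6 months. In the PBOO rats a suture was tied around the bladder neck. The controls are called normal in the labels and were sham operated per the methods, with the incision closed and no tie. The groups were 3 PBOO and 3 normal samples at week 4 and 2 PBOO and 3 normal samples at week 5. No sample carried a transgene or a drug. Each sample was bulk tissue, so nerve fibres, glia, muscle and epithelium were measured together. The sample descriptions of week 4 carry the word Input and those of week 5 do not, so the week and a possible difference in library making cannot be told apart. The normal samples of week 5 alone are described as adult, and whether their age differed from that of the other groups cannot be told from the labels. Values are FPKM, fragments scaled to the exon length of the gene and to all mapped fragments of the sample. The number of reads behind them is unknown.

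Some samples stood apart before any neurotrophin gene was considered. The 10 smooth muscle markers (Myh11, Acta2, Actg2 and others) summed to 25503 to 29659 FPKM in the 6 normal samples of both weeks. They summed to 52125, 63139 and 83056 FPKM in the PBOO samples of week 4 and to 1882 and 1004 FPKM in those of week 5. At week 5 the PBOO mean of this sum was thus 19.1-fold lower than the normal mean, while the urothelium markers summed to 8269 to 10857 FPKM in normal and to 10596 and 11397 FPKM in PBOO samples. The 15 leukocyte markers summed to 20.2 to 47.4 FPKM in normal and to 183 and 641 FPKM in PBOO samples of week 5. Normal week 4 replicate 1 had low fibroblast markers (1140 FPKM against 4164 and 4249 FPKM in the other normal samples) and low leukocyte markers (34.9 FPKM against 232 and 250.2 FPKM). In bulk tissue, fewer cells of a type, less RNA per cell and a different share of muscle wall in the piece taken cannot be told apart.

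The ligands with the clearest differences are Bdnf at week 4 and Ntf3 at week 5, and the stretches around their transcription starts are shown first. RefSeq promoters (build GRCr8, 250 bases before to 50 bases after each start) were matched by symbol for 3 of the 6 genes, with 6 starts for Bdnf, 3 for Ntf3 and 1 for Sort1. The 3 stretches below were picked because they hold letters of motifs that are known to read cell activity or to mark housekeeping promoters. Capitals mark the CRE core (TGACG, in the first), the AP-1 site (TGANTCA) and the GC boxes (GGGCGG, in the second), and the GC boxes again in the third. All motifs were searched on both strands.

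Bdnf, the fourth start, chr3:116637608-116637907, plus strand: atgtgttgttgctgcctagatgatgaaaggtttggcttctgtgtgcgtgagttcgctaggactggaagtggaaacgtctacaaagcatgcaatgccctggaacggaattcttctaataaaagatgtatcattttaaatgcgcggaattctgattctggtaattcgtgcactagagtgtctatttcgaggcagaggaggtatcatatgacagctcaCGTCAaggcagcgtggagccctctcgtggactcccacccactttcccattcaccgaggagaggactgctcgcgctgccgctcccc
Bdnf, the third start, chr3:116621721-116622020, plus strand: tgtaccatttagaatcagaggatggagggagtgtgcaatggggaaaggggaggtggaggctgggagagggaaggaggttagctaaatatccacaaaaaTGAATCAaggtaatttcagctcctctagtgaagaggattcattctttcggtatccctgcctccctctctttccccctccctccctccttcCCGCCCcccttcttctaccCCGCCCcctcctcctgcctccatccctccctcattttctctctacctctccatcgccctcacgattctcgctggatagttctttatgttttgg
Ntf3, the first start, chr4:160668858-160669157, minus strand: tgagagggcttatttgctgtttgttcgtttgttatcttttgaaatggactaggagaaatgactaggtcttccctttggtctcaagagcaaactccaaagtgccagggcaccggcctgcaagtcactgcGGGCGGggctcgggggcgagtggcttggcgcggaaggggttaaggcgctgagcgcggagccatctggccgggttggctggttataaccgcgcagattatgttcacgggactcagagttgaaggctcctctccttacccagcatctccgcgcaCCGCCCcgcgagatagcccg

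The CRE core lies at position -35 from the fourth Bdnf start, a promoter that is known in neurons to answer to calcium and to the factor CREB. The AP-1 site lies at -152 and the GC boxes lie at -62 and -43 from the third start. In the Ntf3 stretch the GC boxes lie at -122 and 31. Of the 33469 rat promoters in the table, 21.2% held a CRE core, 7.33% an AP-1 site and 33.1% a GC box. These letters are common, and a match is a description, not a site in use. The CArG box, which the muscle factor SRF reads, was in none of the 10 stretches of the 3 genes and in 1.64% of all promoters, and its absence from these windows carries no statement on the factor. The FPKM values sum over all starts and isoforms of a gene, so they do not tell which Bdnf promoter was used.

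The levels of the 6 genes differed widely, and FPKM is per length, so genes can be set side by side. In normal bladder tissues at week 4, Sort1 had the highest level at 59.2 ± 10.9 FPKM (SD, n = 3), above 92.2% of the genes of the table. Ntf3 followed at 6.64 ± 0.689 FPKM (SD, n = 3), then Ngfr at 4.02 ± 0.802 FPKM (SD, n = 3). Ntrk3 (1.62 ± 0.354 FPKM, SD, n = 3) and Ntrk2 (1.42 ± 0.507 FPKM, SD, n = 3) had overlapping ranges, while Bdnf came last at 0.113 ± 0.128 FPKM (SD, n = 3). In PBOO samples at week 4, Bdnf stood in the third place, and every range from Ntf3 down overlapped that of its neighbour in the order. In normal samples at week 5 the order was that of normal week 4, with Ntf3 and Ngfr overlapping and Ntrk2 and Bdnf overlapping. In PBOO samples at week 5, Sort1 stood at 37.7 ± 17.96 FPKM (SD, n = 2), and the next gene, Ngfr, stood at 0.437 ± 0.0743 FPKM (SD, n = 2).

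**Figure D1:**
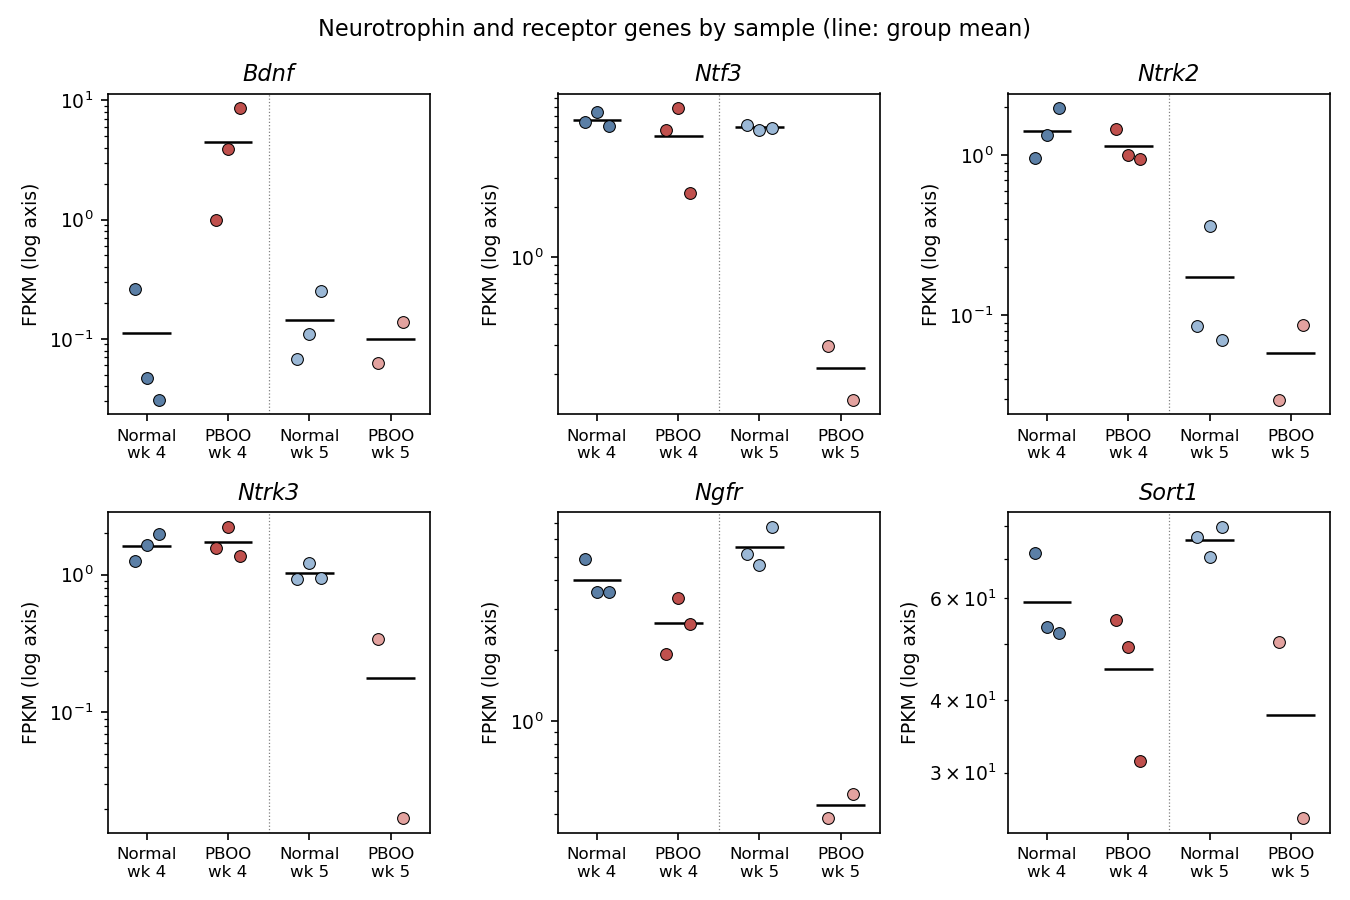
FPKM (log axes, a different range in each panel) of Bdnf, Ntf3, Ntrk2, Ntrk3, Ngfr and Sort1 in each of the 11 samples by group, with a point per sample and a line at the group mean. The 3 PBOO samples of week 4 lie above all others for Bdnf (0.988 to 8.57 FPKM), and the 2 PBOO samples of week 5 lie below all others for Ntf3, Ngfr and Ntrk3.

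The first comparison asked how the genes differed between PBOO and normal bladder at week 4. Bdnf rose, and no other of the 6 genes passed the test. Bdnf had 0.261, 0.0470 and 0.0310 FPKM in the normal samples and 0.988, 3.89 and 8.57 FPKM in the PBOO samples. Every PBOO value lay above every normal value, and the PBOO samples spread over a wide range. The mean was 39.7-fold higher in PBOO (4.48 ± 3.82 FPKM, SD, n = 3). Fold changes from limma are on the log2(FPKM + 0.1) scale, where those of genes with low levels come out too small. There the value for Bdnf was 4.13 (standard error, SE, 0.80, limma unadjusted p = 0.00132, adjusted p = 0.0541 over 11320 genes). Only 1 gene of all those tested had a higher log2 fold change. At its normal mean of 0.113 FPKM, Bdnf reached the mean of 0.5 FPKM needed for a test only through the PBOO samples. A gene at such a normal level can be tested only if its PBOO level is higher, so the direction of the call says little by itself. With no minimum level its limma adjusted p was 0.0645. An unadjusted p under 0.05 was found in 32% of all genes tested, 5.76% higher and 26.2% lower in PBOO. With at least a 2-fold change as well, which Bdnf had, it was found in 4.9%, and in 2.46% with the higher level in PBOO. Groups apart with PBOO higher were found in 6.63%. At an adjusted p under 0.05 with a 2-fold change, limma called 0 of the 6 genes and 0.371% of all genes. Without PBOO replicate 1 the log2 fold change of Bdnf was 4.95 (limma adjusted p = 0.0123), and without PBOO replicate 3 it was 3.45 (limma adjusted p = 0.104). Without normal replicate 1, the sample with low fibroblast and leukocyte markers, it was 4.59 (limma adjusted p = 0.0932).

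The study calls its replicates biological, and the p-values measure the spread between these few samples. An exact permutation test (two-sided) of 3 against 3 samples cannot go below 0.1, and Bdnf reached that value.

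Smooth muscle markers were higher in the same samples as Bdnf, with 7 of the 10 past the test upwards and none downwards. The order of the PBOO samples was the same for the marker sum and for Bdnf, with replicate 3 highest in both. Set against that sum, Bdnf in PBOO was 15.2-fold higher than in normal samples, and the groups did not overlap. Set against the summed fibroblast and interstitial markers, it was 12.9-fold higher with overlapping groups, the highest normal value being that of replicate 1 with its low marker sum. The share of all genes apart on these scales was not computed. The part of smooth muscle and fibroblast RNA in the Bdnf values was not tested. Of 9 neuron markers tested, 2 rose and 3 fell, the median log2 fold change was -0.51, and the summed level was 1.69-fold lower in PBOO. This sum, with means of 1188 FPKM in normal and 702 FPKM in PBOO samples, is set by Uchl1. Tubb3 (1.36 against 3.20 FPKM) and Syn1 (0.297 against 0.807 FPKM) rose from normal to PBOO, while Nefl (14.4 against 4.98 FPKM) and Prph (9.08 against 6.08 FPKM), both of neuronal filaments, and Uchl1 (1146 against 675 FPKM) fell. Syn1, with a normal mean under 0.5 FPKM, could be tested only because of its level in the PBOO samples.

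Ntf3 had 6.42, 7.41 and 6.09 FPKM in the normal samples of week 4 and 5.83, 7.83 and 2.42 FPKM in the PBOO samples. The groups overlapped, and PBOO replicate 3 alone lay low. The log2 fold change was -0.45 (SE 0.40, limma adjusted p = 0.439), and without that sample it was 0.030. Within the sum of Bdnf and Ntf3, Bdnf made up 0.507% to 3.90% in normal samples and 14.5% to 77.9% in PBOO samples of week 4.

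The Trk receptor genes did not pass the test at week 4. Ntrk2, for the BDNF receptor TrkB, had 0.965, 1.34 and 1.97 FPKM in normal and 1.46, 0.999 and 0.946 FPKM in PBOO samples. These groups overlapped, and the log2 fold change was -0.27 (95% interval -1.09 to 0.55, limma adjusted p = 0.584). The interval holds changes of up to about 2-fold downwards. Ntrk3, for TrkC, had 1.25, 1.63 and 1.96 FPKM in normal and 1.56, 2.24 and 1.36 FPKM in PBOO samples. Here too the groups overlapped, and the log2 fold change was 0.08 (95% interval -0.62 to 0.78, limma adjusted p = 0.863). Both genes encode full-length receptors with a kinase and shorter forms without it, which the gene values do not tell apart.

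Ngfr, for p75, had 4.94, 3.55 and 3.55 FPKM in normal and 1.93, 3.36 and 2.60 FPKM in PBOO samples of week 4. Every PBOO sample lay below every normal sample, as it did in 34.9% of all genes tested. The log2 fold change was -0.61 (SE 0.26, limma unadjusted p = 0.0543, adjusted p = 0.163). Without PBOO replicate 2 the unadjusted limma p was 0.0295 (log2 fold change -0.80, adjusted p = 0.216). Sort1 had 71.8, 53.6 and 52.2 FPKM in normal and 55.1, 49.4 and 31.4 FPKM in PBOO samples. The groups overlapped (log2 fold change -0.41, SE 0.23, limma adjusted p = 0.249). Over all genes tested, the median was -0.25 at week 4, so the values of Ngfr and Sort1 lay 0.35 and 0.16 below that median. Set against the higher smooth muscle sum of the PBOO samples, all 5 genes other than Bdnf were lower in PBOO with groups apart, at log2 ratios of -1.47 for Ntf3, -1.53 for Ntrk2, -1.14 for Ntrk3, -1.86 for Ngfr and -1.56 for Sort1. The sum itself was 1.26 higher in PBOO on the log2 scale, so an unchanged gene comes out lower by about as much. The share of all genes apart on that scale was not computed.

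Markers of Schwann cells and glia were lower in the same PBOO samples as Ngfr. Of the 12 listed, 10 were tested and 6 fell, none rose, and their summed level was 406 to 607 FPKM in normal and 258 to 334 FPKM in PBOO samples. Sox10, a transcription factor that defines Schwann cells, had a mean of 5.66 FPKM in normal and 2.59 FPKM in PBOO samples. It fell at an unadjusted p under 0.05, while Foxd3 and Fabp7 were listed at 0 in all 6 samples. Relative to the summed glia markers, Ngfr overlapped between the groups. That sum was 1.69-fold lower in PBOO, and the urothelium sum was 1.70-fold lower in the same samples. At the later week the glia sum is set by Mal, a gene that epithelial cells also express. The share of Mal in the sum used here is not given, so the ratio cannot tell whether Ngfr followed glia. The part of the glia markers in the Ngfr values was not tested.

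**Figure D2:**
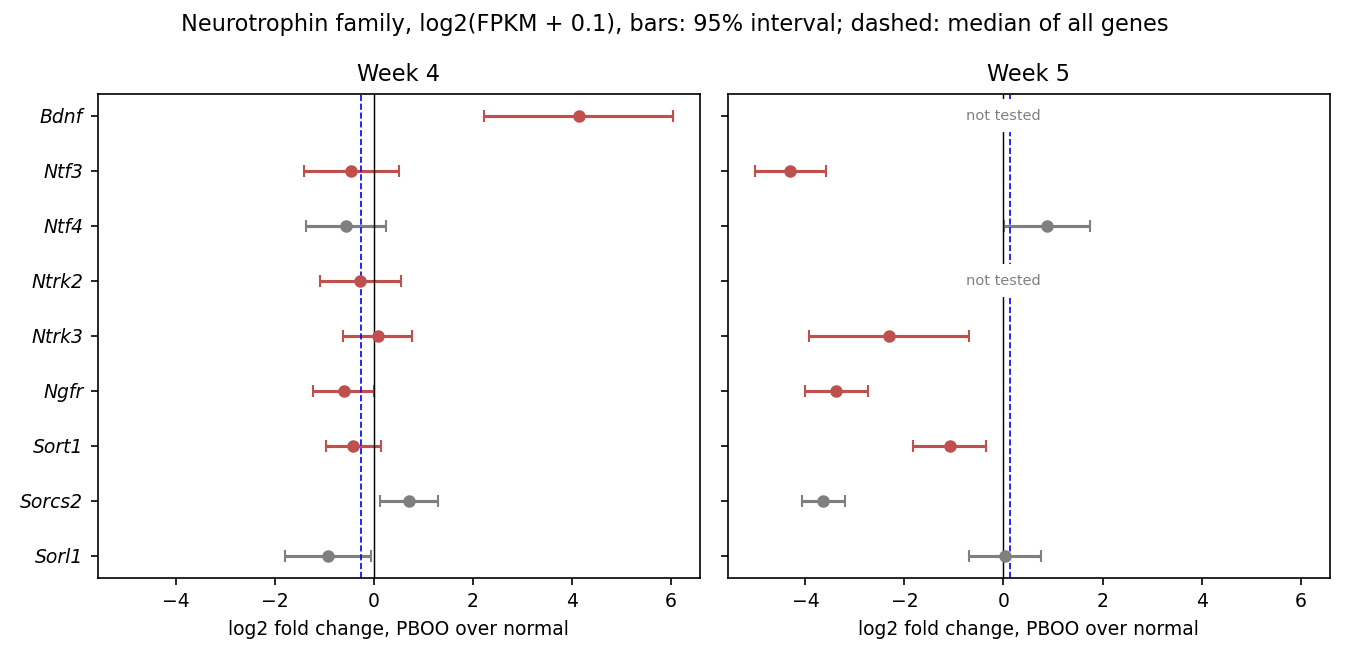
log2 fold change (PBOO over normal, on log2(FPKM + 0.1)) with 95% intervals from limma for the 6 genes (red) and 3 further family genes (grey), at week 4 and week 5, with the median of all genes as a dashed line. Bdnf lies at 4.13 at week 4, and Ntf3, Sorcs2 and Ngfr lie at -4.30, -3.64 and -3.38 at week 5, while Bdnf and Ntrk2 were under the level needed for a test at week 5.

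At week 5 the same question had a different answer. Only 4 of the 6 genes reached the mean of 0.5 FPKM needed for a test, taken over PBOO and normal samples together. All 4 fell, beside 18.8% of all genes tested that fell and 43.4% that passed in either direction. Ntf3, Ngfr and Ntrk3, at PBOO means of 0.218, 0.437 and 0.178 FPKM, reached that mean through the normal samples. A gene at such PBOO levels can be tested only if its normal level is higher, so the count of falls says little by itself. At an adjusted p under 0.05 the 4 genes were still lower, as were 14.5% of all genes tested. The adjusted calls of Ntrk3 and Sort1 were lost when any 1 of the normal samples was left out (limma adjusted p from 0.129 to 0.143 for Ntrk3 and from 0.0992 to 0.122 for Sort1), while the unadjusted p stayed under 0.05. A fall of at least 4-fold at an unadjusted p under 0.05 was seen for 3 of them, Ntf3, Ngfr and Ntrk3, beside 6.88% of all genes (10.5% in either direction). Groups that do not overlap, with PBOO lower, were found in 25% of all genes.

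Ntf3 had 6.24, 5.79 and 5.97 FPKM in the normal samples of week 5 and 0.296 and 0.141 FPKM in the PBOO samples. The normal values lay close together, and both PBOO values lay far below them. The mean was 27.5-fold lower, and the log2 fold change was -4.30 (SE 0.29, limma adjusted p = 0.000550). Counted from the most negative value, it ranked 126 among the 13685 genes tested.

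Ngfr had 5.16, 4.65 and 6.77 FPKM in normal and 0.384 and 0.489 FPKM in PBOO samples of week 5. The groups were far apart, with a mean 12.7-fold lower in PBOO and a log2 fold change of -3.38 (SE 0.26, limma adjusted p = 0.000791). Ntrk3 had 0.939, 1.21 and 0.945 FPKM in normal and 0.339 and 0.0171 FPKM in PBOO samples. The PBOO samples differed widely from each other, and both lay below the normal samples (log2 fold change -2.31, SE 0.65, limma adjusted p = 0.0463). Without PBOO replicate 2, the lower of the pair, the log2 fold change of Ntrk3 was -1.36 (limma adjusted p = 0.0424), and without PBOO replicate 1 it was -3.27 (limma adjusted p = 0.00518). In such fits the lone PBOO sample was taken to vary like the normal ones.

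Sort1 had 76.7, 70.7 and 79.8 FPKM in normal and 50.4 and 25.0 FPKM in PBOO samples of week 5. Both PBOO values lay below the normal ones, and the mean was 2.01-fold lower (log2 fold change -1.09, SE 0.30, limma adjusted p = 0.0418). Without PBOO replicate 1 the log2 fold change was -1.59 and without PBOO replicate 2 it was -0.58. Sort1 had the smallest fold change of the 4 genes. An exact permutation test (two-sided) of 2 against 3 samples cannot go below 0.2, and Ntf3, Ngfr, Ntrk3 and Sort1 each reached that value.

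Bdnf and Ntrk2 lay low in every sample of week 5. Bdnf had 0.0680, 0.110 and 0.252 FPKM in normal and 0.0631 and 0.139 FPKM in PBOO samples, and the groups overlapped. With no minimum level, its log2 fold change was -0.23 (95% interval -1.24 to 0.78, limma adjusted p = 0.705). Ntrk2 had 0.0865, 0.361 and 0.0704 FPKM in normal and 0.0298 and 0.0872 FPKM in PBOO samples. These groups overlapped as well (log2 fold change -0.65 with no minimum level, 95% interval -1.93 to 0.63, limma adjusted p = 0.405). The read depth is unknown, so how few reads lie behind these values could not be stated.

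The genes that fell at week 5 did so in samples whose smooth muscle and fibroblast markers were low. All 10 smooth muscle markers fell, with a median log2 fold change of -4.56, and the summed fibroblast and interstitial cell markers were 9.84-fold lower in PBOO. The smooth muscle sum was 19.1-fold lower in PBOO, so a gene at an unchanged level comes out higher relative to it. The share of all genes apart on that scale was not computed. Relative to the sum, Ntf3 was 1.47-fold lower in PBOO and the groups did not overlap. On that scale Sort1 was 9.43-fold higher with groups apart, and Ngfr (1.74-fold higher) and Ntrk3 (2.61-fold higher) overlapped between groups. The part of the lower muscle and fibroblast RNA in the values of these genes was not tested.

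Some glia and nerve markers were also lower in the PBOO samples of week 5. Among 10 glia markers tested, 5 fell and 1 rose, beside 18.8% of all genes that fell and 24.6% that rose. The median log2 fold change of the glia markers was -2.25. Sox10 fell from a mean of 3.76 to 0.164 FPKM and S100b, a calcium-binding protein of glia, from 10.4 to 0.419 FPKM. The summed level of the list was 1.47-fold higher in PBOO, since it is set by Mal (402 FPKM in normal and 629 FPKM in PBOO samples), a gene that epithelial cells also express. Of 7 neuron markers tested, 4 fell and none rose, among them Nefl (25.7 to 0.262 FPKM) and Stmn2 (5.65 to 0.0971 FPKM), both of axons. Their sum, 798 to 851 FPKM in normal and 728 and 1317 FPKM in PBOO samples, is set by Uchl1. Th was listed at 0 in both PBOO samples, and Chat and Calca were listed at 0 in all 5 samples of week 5. The part of nerve and glia RNA in the fall of Ngfr and Ntrk3 was not tested.

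**Figure D3:**
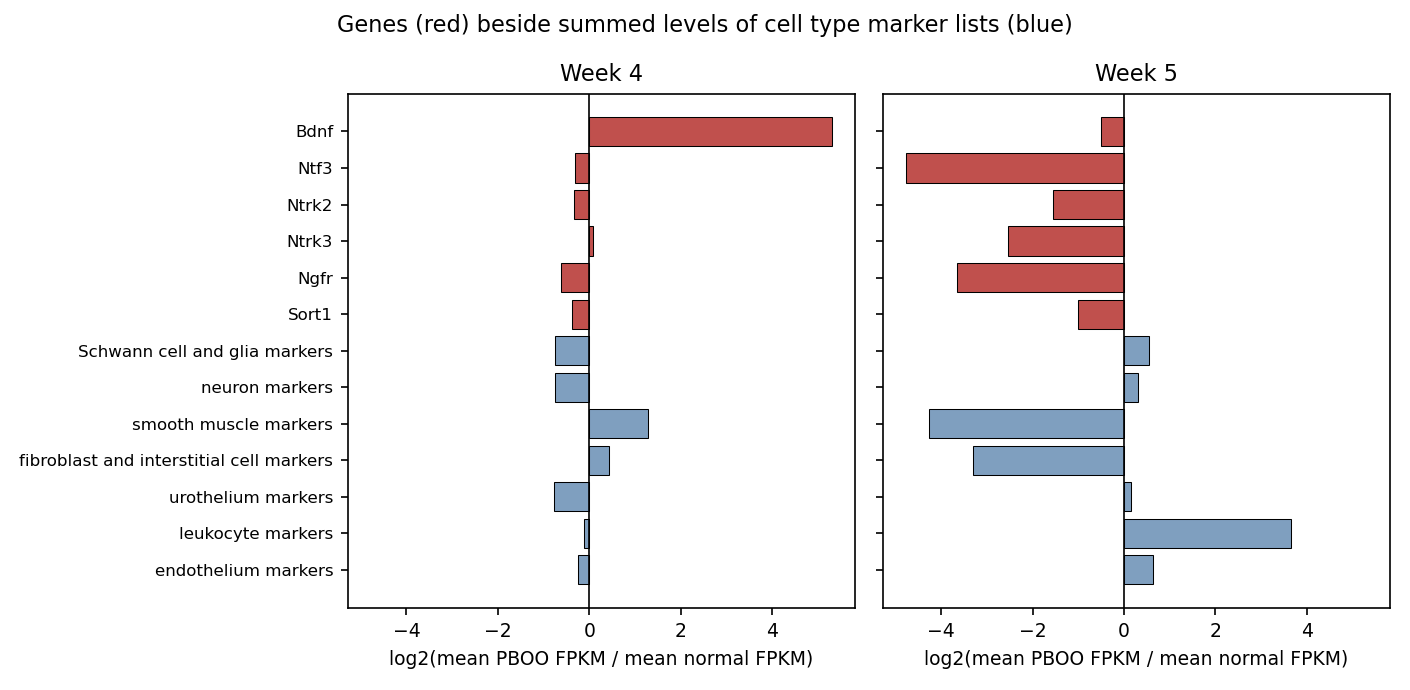
log2 of the ratio of group means (PBOO over normal FPKM) for the 6 genes (red) and for the summed FPKM of 7 lists of cell type markers (blue), at week 4 and week 5. At week 5 the smooth muscle sum is 19.1-fold and the fibroblast sum 9.84-fold lower in PBOO, beside Ntf3 at 27.5-fold and Ngfr at 12.7-fold lower, and the leukocyte sum is 12.6-fold higher.

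Whether the difference between PBOO and normal itself differed between the weeks was tested with an interaction term over all 11 samples and 11296 genes. Of the 6 genes, 4 passed this test, each with a lower log2 fold change at week 5 than at week 4. Of all genes tested, 15.7% were lower in this way at an unadjusted p under 0.05 and 13.5% at an adjusted p under 0.05. The change in log2 fold change from week 4 to week 5 was -4.37 for Bdnf (SE 1.11, limma adjusted p = 0.0115) and -3.85 for Ntf3 (SE 0.55, limma adjusted p = 0.000616). It was -2.77 for Ngfr (SE 0.38, limma adjusted p = 0.000483) and -2.39 for Ntrk3 (SE 0.67, limma adjusted p = 0.0184). For Bdnf the 3 PBOO samples of week 4 lay apart from the other 8 samples, and for Ntf3, Ngfr and Ntrk3 the 2 PBOO samples of week 5 lay apart from the other 9. Bdnf had means of 4.48 FPKM in PBOO week 4 and of 0.113, 0.143 and 0.101 FPKM in normal week 4, normal week 5 and PBOO week 5. It thus reached the level needed for this test only through PBOO week 4, and its change restates the week 4 rise. Sort1 (-0.68, 95% interval -1.57 to 0.22) and Ntrk2 (-0.38, 95% interval -1.95 to 1.2) did not pass, with limma adjusted p = 0.2002 and 0.698. The median of all genes was 0.35 in this comparison, above 0.

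The normal samples of the weeks also differed for some of the genes. Ntrk2 was at 0.965 to 1.97 FPKM in normal samples of week 4 and at 0.0704 to 0.361 FPKM in those of week 5, with no overlap. Ntrk3 was at 1.25 to 1.96 and at 0.939 to 1.21 FPKM, also with no overlap. The share of all genes apart in this way was not computed. Genes listed at 0 numbered 5578 to 5786 in the normal samples of week 4 and 1715 to 2246 in those of week 5. Sort1 overlapped, at means of 59.2 and 75.7 FPKM, as did Ngfr (4.02 and 5.53 FPKM), Ntf3 (6.64 and 6.001 FPKM) and Bdnf (0.113 and 0.143 FPKM). The week and the making of the libraries cannot be told apart in this difference.

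The wider family was described from a fixed list of 13 ligands and receptors that includes the 6 genes. At week 4, 10 were tested, 2 rose (Bdnf and Sorcs2) and 1 fell (Sorl1), and the median log2 fold change was -0.34 against -0.25 for all genes. Bdnf could be tested only because of its level in the PBOO samples. At week 5, 7 were tested, 5 fell and 1 rose, beside 24.6% of all genes that rose, and the median was -2.31 against 0.12 for all genes. Of these, Ntf3, Ngfr and Ntrk3 could be tested only because of their level in the normal samples.

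Among the other ligands, Ntf4, which encodes a second ligand of TrkB, had 4.48, 3.04 and 6.23 FPKM in normal and 10.1 and 6.61 FPKM in PBOO samples of week 5. It rose at an unadjusted p under 0.05 (log2 fold change 0.88, SE 0.35, limma adjusted p = 0.110), the opposite direction to Ntf3 in the same samples. With median-ratio scaling of the samples it no longer passed.

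Sorcs2 and Sorl1 are relatives of sortilin, and SorCS2 is a partner of p75 for proneurotrophins. Sorcs2 had 15.5, 15.7 and 12.8 FPKM in normal and 16.05, 29.8 and 28.6 FPKM in PBOO samples of week 4. All PBOO values lay above the normal ones, by a small margin in replicate 1 (log2 fold change 0.71, SE 0.25, limma adjusted p = 0.115). At week 5 it had 15.01, 15.999 and 13.4 FPKM in normal and 1.23 and 0.972 FPKM in PBOO samples. It fell 13.5-fold (log2 fold change -3.64, SE 0.18, limma adjusted p = 0.000287), and the change between weeks was -4.35 (SE 0.34, limma adjusted p = 1.19e-05). Sorl1 had a mean of 20.7 FPKM in normal and 11.7 FPKM in PBOO samples of week 4, with overlapping groups (log2 fold change -0.93, limma adjusted p = 0.140, and not past the test with median-ratio scaling). At week 5 the means were 24.0 and 25.9 FPKM (log2 fold change 0.031, limma adjusted p = 0.943).

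Proteases that cleave proneurotrophins were taken from a list of 14 genes. At week 4, 10 were tested, 2 rose and none fell, beside 5.76% of all genes that rose and 26.2% that fell. These were Pcsk6 (5.48 ± 1.25 to 10.9 ± 0.800 FPKM, SD, n = 3 each) and Pcsk7 (24.5 ± 1.97 to 50.02 ± 12.4 FPKM, SD, n = 3 each), both proprotein convertases of the furin family (limma adjusted p = 0.0553 and 0.0538). At week 5, 11 were tested, 7 rose and 3 fell, beside 24.6% of all genes that rose and 18.8% that fell. Mmp7, an epithelial metalloproteinase that cleaves proneurotrophins outside the cell, rose, with 0.657 ± 0.229 FPKM in the 3 normal and 507 ± 315 FPKM in the 2 PBOO samples (mean ± SD, log2 fold change 9.28, limma adjusted p = 0.000288). Mmp9, a gelatinase of neutrophils and macrophages that also cleaves proBDNF, had log2 fold change 6.30 (SE 1.22, limma adjusted p = 0.0149), and Mmp3 had 5.28 (SE 0.69, limma adjusted p = 0.00439). Pcsk6 fell at week 5, by 2.74 on the log2 scale (limma adjusted p = 0.01001). Mmp9, at a normal mean of 0.00702 FPKM, reached the level needed for a test only through the PBOO samples. Pcsk5, which also fell, and Pcsk6 had PBOO means of 0.145 and 0.235 FPKM and reached it only through the normal samples. The directions of these calls say little by themselves. The leukocyte marker sum was 12.6-fold higher in the PBOO samples of week 5, and its part in the protease values was not tested.

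Of 44 genes of Trk signalling tested at week 4, 3 rose and 6 fell, and at week 5, of 46 tested, 10 rose and 11 fell. The shares that passed, 20.5% and 45.7%, stand beside 32% and 43.4% of all genes. Camk4, a calcium-dependent kinase that acts on CREB, fell from 3.13 ± 0.369 to 1.04 ± 0.259 FPKM (SD, n = 3 each) at week 4 (log2 fold change -1.52, limma adjusted p = 0.0538). Shc2, an adaptor that binds Trk receptors, rose at week 4 (0.76, limma adjusted p = 0.113) and fell at week 5 (-2.05, limma adjusted p = 0.00320). Frs3, another such adaptor, fell at week 4 (-0.76, limma adjusted p = 0.140), while at week 5 Creb1 fell (-1.49, limma adjusted p = 0.0235) and Rps6ka1, a kinase below ERK, rose (1.35, limma adjusted p = 0.00563). After median-ratio scaling, 10 genes of this list rose and 1 fell at week 4.

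Partners of the p75 receptor and its signalling proteins gave 28 tested genes at week 4, of which none rose and 6 fell. The share that fell, 21.4%, stands beside 26.2% of all genes. With median-ratio scaling, 1 rose and 2 fell. Traf4 (log2 fold change -0.75, limma adjusted p = 0.0828), Zfp110 (-0.66, limma adjusted p = 0.114), Bex3 (-0.42, limma adjusted p = 0.0791) and Traf2 (-0.36, limma adjusted p = 0.150) fell with groups apart. Bex3 binds the death domain of p75, and Zfp110 is the rodent gene of the p75-binding zinc finger protein NRIF. At week 5, 27 were tested, 9 rose and 5 fell, a share of 51.9% beside 43.4% of all genes. Rtn4r, which encodes the Nogo receptor that uses p75 as a co-receptor, fell, with 19.5 ± 2.07 FPKM in the 3 normal and 1.43 ± 0.176 FPKM in the 2 PBOO samples (mean ± SD, log2 fold change -3.67, limma adjusted p = 0.000267). Nfkbia, an inhibitor of NF-kB that NF-kB itself induces, rose (2.39, limma adjusted p = 0.00334), Traf4 rose (1.19, limma adjusted p = 0.00530), and Bex3 fell (-1.21, limma adjusted p = 0.00520).

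Factors of the GDNF and CNTF families, other trophic factors of peripheral nerve, were listed for comparison. At week 4, 17 were tested, 2 rose and 6 fell, and at week 5, of 14 tested, 4 rose and 7 fell. The shares that passed were 47.1% and 78.6%, beside 32% and 43.4% of all genes. Gfra2, the receptor for neurturin, fell at week 4 (13.5 ± 0.604 to 5.37 ± 1.32 FPKM, SD, n = 3 each, limma adjusted p = 0.0503) and at week 5 (log2 fold change -3.83, limma adjusted p = 0.00187). Cntfr, the CNTF receptor subunit, fell at both weeks (log2 fold change -1.30 and -4.85, limma adjusted p = 0.0538 and 0.00113). Artn, for artemin, fell at week 4 (-1.33, limma adjusted p = 0.0574), and Nrtn (-2.71) and Gfra3 (-1.86) fell at week 5 (limma adjusted p = 0.00430 and 0.0450). Gfra2, at a PBOO mean of 0.226 FPKM at week 5, could be tested there only because of its level in the normal samples.

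**Figure D4:**
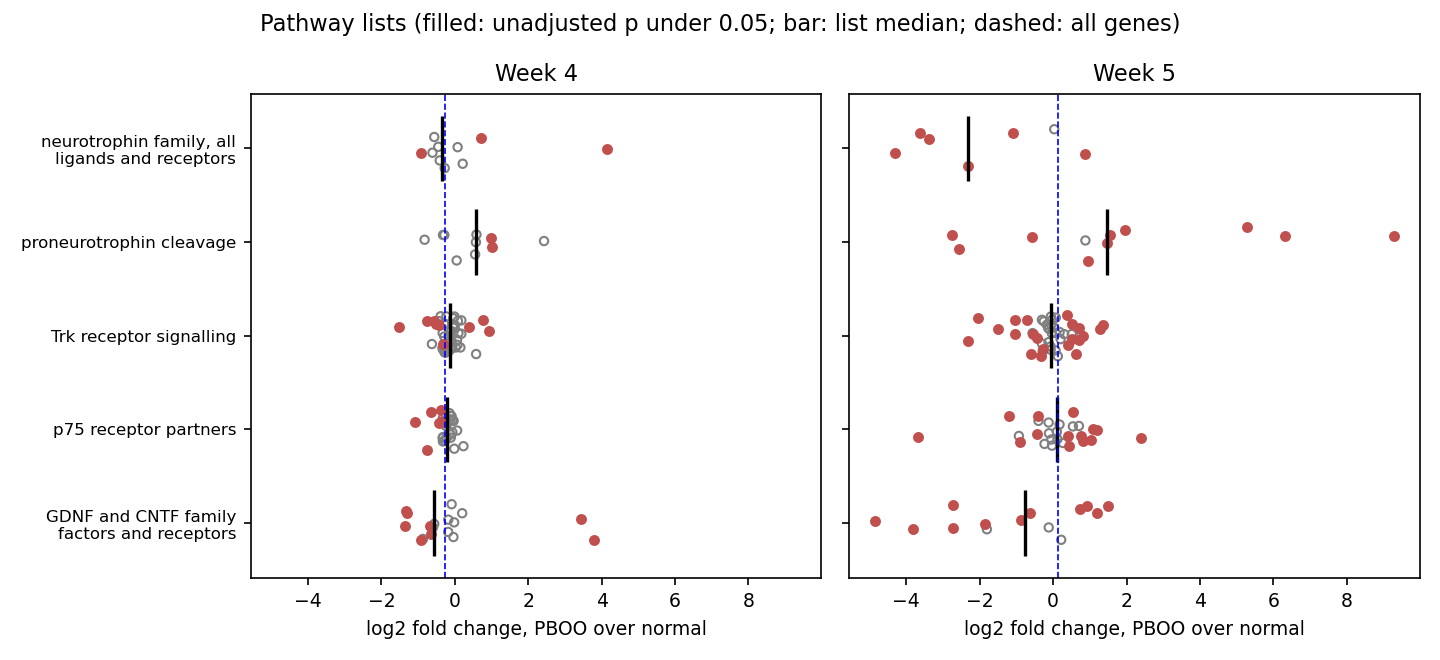
log2 fold change (PBOO over normal) of each tested gene in 5 lists at week 4 and week 5. The lists are those of the neurotrophin pathway and, for comparison, that of the GDNF and CNTF families. Points are filled where the unadjusted limma p was under 0.05. A bar marks the list's median and a dashed line the median of all genes. The family list has its median at -2.31 and the protease list at 1.47 at week 5, where the median of all genes is 0.12.

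Finally, the genes whose pattern over the 11 samples was most like each of the 6 were found among about 9970 genes with at least 1 FPKM on average in each week, with the mean of each week subtracted. For Bdnf these were Stk38l (Pearson r = 0.976), Camk2n2 (r = 0.973) and Tp53inp2 (r = 0.941). For Ntf3 they were Fhod3 (r = 0.994), Kcnh2 (r = 0.992) and Wnk2 (r = 0.991), and for Ngfr Meis3 (r = 0.987), Enho (r = 0.984) and Slc30a10 (r = 0.981). Those of Ntrk2 were Chp2 (r = 0.959), Gpt2 (r = 0.938) and Jam2 (r = 0.933). Ntrk3 was closest to Serinc3 (r = 0.988), Sumf1 (r = 0.986) and Ablim3 (r = 0.982), and Sort1 to Rnf187 (r = 0.988), Iqsec2 (r = 0.985) and Cand2 (r = 0.983). These values describe 11 samples in which the PBOO and normal groups differ in many genes at once, and with Spearman's rho only 1 of the 3 genes was again among the closest 3 for Bdnf, Ngfr and Ntrk2, and none for Ntf3, Ntrk3 and Sort1.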

How the data were processed

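The authors sequenced TruSeq libraries in pairs on a HiSeq4000, trimmed reads with SeqPrep and Sickle, mapped them with HISAT2, assembled transcripts with StringTie, and deposited 1 table of FPKM values, with DESeq2 and limma also named. The submitters' processing notes name bcl2fastq 2.0 and the mouse build mm10, although the table holds 36 rat (RT1) and 0 mouse (H2) symbols of the MHC. The strand of counting is not given in the sources used here, so overlapping transcripts of opposite strands cannot be told apart. FPKM sums ranged from 424961 to 564343 per sample, 5578 to 5798 genes were listed at 0 at week 4 and 1715 to 2329 at week 5, and a 0 is read only as the listed value. Samples were grouped by their labels.

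Here log2(FPKM + 0.1) was fitted for each week with limma 3.58.1 in R 4.3.3 (eBayes with a trend), for genes whose mean reached 0.5 FPKM, and Benjamini-Hochberg adjustment was over all genes tested. A gene passed at an unadjusted p under 0.05. The study's results add fold thresholds (2-fold for week 4, 4-fold for week 5) and its methods an adjusted p, and counts under both are given in the report. The fit was first tested on simulated data. Permutation tests used scipy 1.17.1. The named genes of each list are up to 4 per week with the largest fold changes among those that passed, whose mean reached 1 FPKM and whose groups were apart, and the 3 genes most like each of the 6. Results for some genes of the lists are not reported here. The members and lists were chosen with earlier results of these data known. The alternatives were other pseudocounts, filters, scalings and variance settings, a replicate block, a joint fit and each sample left out. Setting values against the smooth muscle markers was added after seeing the data.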

Additional observations from a re-analysis of the deposited data

Results flagged for a closer look

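For 4 of the 6 genes, the difference between PBOO and normal samples differed between the weeks by an interaction term in limma. The change in log2 fold change from week 4 to week 5 was -4.37 for Bdnf, -3.85 for Ntf3, -2.77 for Ngfr and -2.39 for Ntrk3. For Bdnf it was -5.18 without PBOO week 4 replicate 1 and -3.68 without PBOO week 4 replicate 3. For Ntrk3 it was -3.34 without PBOO week 5 replicate 1 and -1.44 without PBOO week 5 replicate 2. For Ntf3 and Ngfr the values with each sample left out ranged from -4.33 to -3.49 and from -2.97 to -2.58. Bdnf lay under the level needed for a test at week 5, so its change restates its higher level in PBOO samples of week 4. The groups of 2 and 3 samples were too small to look for single outlying samples.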

How the results depend on the processing

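At week 4, 1 of the 6 genes passed, and 2 passed without a trend, in 1 fit over 11 samples and with the replicate block, while 0 passed at an adjusted p under 0.05 with a 2-fold change, where 58 of all genes had an adjusted limma p under 0.05. Leaving out 1 sample gave 1 to 2, with 2 without PBOO week 4 replicate 2. The second gene was Ngfr (limma unadjusted p = 0.0437 without a trend, 0.0363 in the joint fit), and with the block it was Sort1 (0.0313). The block was not taken as pairing: the deviations of same-numbered samples correlated at 0.15, -0.024 and 0.23 at week 4 and -0.00081 and 0.12 at week 5. At an unadjusted p it changed no other call of the 6 genes, while the adjusted limma p became 0.113 for Ntrk3 at week 5 and 0.0608 and 0.0531 for the changes of Bdnf and Ntrk3 between weeks. In the Trk signalling list it left 5 genes higher and 7 lower at week 5. Of all genes, 555 passed at week 4 with a 2-fold change, against 336 with a pseudocount of 1, 352 with ordinary variances, 42 after adjustment and 352 to 1024 with 1 sample left out (352 without PBOO replicate 3, 1024 without PBOO replicate 1). At week 5, 1432 passed with a 4-fold change, against 726 with a pseudocount of 1, 2637 after adjustment with a 2-fold change and 1362 to 1824 with 1 sample left out. The adjusted p of Ntrk3 at week 5 was also over 0.05 with a pseudocount of 0.01 (0.0715), quantile normalization (0.0856) and ordinary variances (0.138), that of Sort1 with no filter (0.0527), no trend (0.0653) and ordinary variances (0.161), and that of the change of Bdnf between weeks with quantile normalization (0.0539). Sort1 at week 5 had an unadjusted limma p of 0.0650 with ordinary variances, and the change of Sort1 between weeks passed after median-ratio scaling (-0.96) and quantile normalization (-0.97). Apart from the smooth muscle scale given below, signs of the 6 genes turned only for values that had not passed. These were Ntf3 at week 4 (0.030 without PBOO replicate 3, range with 1 sample left out -0.80 to 0.030), Ntrk3 at week 4 (-0.083 without normal replicate 1, -0.12 without PBOO replicate 2, range -0.12 to 0.22) and the change of Ntrk2 between weeks (0.031 with a pseudocount of 1, 0.27 with quantile normalization, 0.081 without normal week 5 replicate 2, range -0.64 to 0.081). Median-ratio scaling moved the median of all genes at week 4 from -0.25 to -0.0054, that of the Trk signalling list to 0.11 and that of the p75 partners to 0.040. Relative to the smooth muscle sum, the log2 ratios turned to -1.14 for Ntrk3 at week 4 and to 0.80, 1.38 and 3.24 for Ngfr, Ntrk3 and Sort1 at week 5. The week 5 values of Ngfr, Ntrk3 and Sort1 had passed in the main fit. The cause was not tested in any of these. The unknown read depth limits what can be said of Bdnf and Ntrk2 at week 5.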
